A study of Rattus norvegicus with 7 samples.

Results

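The genes described here are 9 carriers and carrier subunits that move amino acids across the cells of the proximal tubule of the kidney. They are Slc3a1, Slc7a9, Slc6a19, Slc6a18, Slc1a1, Slc7a13, Slc7a7, Slc7a8 and Slc43a2, and they were found by symbol among the 25399 genes of the deposited feature tables. Each of the 9 symbols belonged to a single gene there, while RefSeq lists 3 symbols that begin with Slc7a13, 2 of them pseudogenes, so reads of near copies may be split or lost for that gene. Their transcripts were counted as unique molecular identifiers (UMIs, a count of captured RNA molecules) in nuclei of whole kidney pieces, and 538230 UMIs of the 9 genes were in the retained nuclei.

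The HSRA rat is a model in which part of the animals are born with a single kidney. Stored kidneys collected at an age of 4 weeks were used. The 1-kidney group held 3 libraries and the 2-kidney group 4. The labels count 3 animals of HSRA-S and 4 of HSRA-C, the same numbers, and all kidney pieces were said to include cortex and medulla. No drug, transgene or induced deletion is named for either group, and the sources used here do not give the sex of the animals. Each library was taken as 1 animal, since each title carries its own number. The titles do not say whether animals shared a litter. The 2-kidney replicates 3 and 4 carry another library set code, P1117B, than the other 5 libraries, and no 1-kidney library carries it.

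Retained nuclei numbered 2240 to 4372 per 1-kidney library, with 5491945 to 18121621 UMIs, and 3933 to 5922 per 2-kidney library, with 14962864 to 26488837 UMIs. The shallowest library was 1-kidney replicate 1. The labels state an average of 5293 cells per sample, and the files hold 37048 barcodes, the same average. The filters kept 30978. Pairs of libraries shared 3 to 14 cell barcodes. Among 23 clusters of nuclei, 1 was named the straight part of the proximal tubule, from 3 of 5 markers of that part (4514 nuclei), and 1 the convoluted part, from 4 of 5 markers (2462 nuclei). Of the 16 general proximal tubule markers, 8 exceeded the other nuclei by at least 2-fold in the convoluted cluster and 1 in the straight cluster. None of the 9 genes was used to name a cluster, and the 3 of them that were among the variable genes were taken out before clustering. All class names rest on markers, so each stands for nuclei like that cell type. Another 6 clusters stayed unnamed. The largest of these was led by Slc34a1, the phosphate carrier of the proximal tubule, and held 2908 nuclei with a median of 9988.5 UMIs and 40.4% of all UMIs. It is described apart, because its UMI content and its doublet score (median 0.0995, against 0.0301 in the straight and 0.0229 in the convoluted cluster) stood above those of the named parts.

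The proximal tubule takes back nearly all filtered amino acids. Carriers of the brush border draw them in from the tubular fluid, mostly with sodium or by exchange, and carriers of the basolateral membrane pass them on to the blood. Several are heterodimers, in which a light chain does the transport and a heavy chain brings it to the membrane. Slc3a1 is the heavy chain of the brush border and pairs with Slc7a9 to take up cystine and dibasic amino acids, and loss of either causes cystinuria. Slc6a19 carries neutral amino acids and is lost in Hartnup disorder, and its relative Slc6a18 also serves neutral amino acids such as glycine. Slc1a1 carries glutamate, aspartate and cysteine. Slc7a13 is a light chain for aspartate, glutamate and cystine that pairs with Slc3a1 in the straight part of rodents. Slc7a7 and Slc7a8 are basolateral light chains that pair with the heavy chain Slc3a2, for dibasic and for neutral amino acids, and loss of Slc7a7 causes lysinuric protein intolerance. Slc43a2 is a basolateral uniporter for large neutral amino acids such as phenylalanine and leucine.

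In the RefSeq annotation of the GRCr8 assembly, Slc6a19 and Slc6a18 are next to each other on chromosome 1, on the same strand, and Slc7a7 and Slc7a8 are both on chromosome 15. RefSeq promoter sequences (250 bases before to 50 after the annotated start) were found for 7 of the 9 genes, those other than Slc7a13 and Slc1a1. Those of the neighbours Slc6a19 and Slc6a18, whose transcripts peaked in opposite parts of the proximal tubule, and that of Slc3a1, a heavy chain that peaked in the straight part, read as follows, 5′ to 3′ on the strand of the gene. Capitals mark exact matches, on either strand, to a half-site of HNF1 (GTTAAT), a factor of proximal tubule genes, to a core of HNF4 (CAAAGTCC) or to a TATA box (TATAAA).
Slc6a19, GRCr8 chr1:31414494-31414793, plus strand: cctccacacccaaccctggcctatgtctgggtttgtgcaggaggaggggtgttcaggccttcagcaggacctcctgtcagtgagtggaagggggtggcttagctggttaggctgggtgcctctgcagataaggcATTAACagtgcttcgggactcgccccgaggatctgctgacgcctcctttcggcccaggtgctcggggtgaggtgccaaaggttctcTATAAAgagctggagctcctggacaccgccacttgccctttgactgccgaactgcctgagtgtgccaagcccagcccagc
Slc6a18, GRCr8 chr1:31436403-31436702, plus strand: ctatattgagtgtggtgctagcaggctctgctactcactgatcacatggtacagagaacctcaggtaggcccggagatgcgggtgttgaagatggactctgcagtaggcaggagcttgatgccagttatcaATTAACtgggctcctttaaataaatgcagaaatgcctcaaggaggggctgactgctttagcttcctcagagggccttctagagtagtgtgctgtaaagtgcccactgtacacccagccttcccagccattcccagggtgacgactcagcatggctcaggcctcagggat
Slc3a1, GRCr8 chr6:15394700-15394999, minus strand: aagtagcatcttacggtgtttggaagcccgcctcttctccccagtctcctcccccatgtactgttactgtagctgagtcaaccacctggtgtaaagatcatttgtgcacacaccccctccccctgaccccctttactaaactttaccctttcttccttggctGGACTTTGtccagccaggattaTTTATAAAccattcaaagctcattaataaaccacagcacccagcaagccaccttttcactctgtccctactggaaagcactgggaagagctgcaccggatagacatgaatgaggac
The HNF1 half-site was found in these promoters of Slc6a19 and Slc6a18, beginning at positions -116 and -119 from the start, and in none of the other 5. It was in 7.45% of 33469 rat promoters of that length. The HNF4 core was in the Slc3a1 promoter alone of the 7 (1.40% of all promoters), and the TATA box in those of Slc6a19 and Slc3a1 (14.2%), where 2 overlapping matches on opposite strands make the run of capitals in Slc3a1. A match is a string of letters, not a measured binding site. In the same annotation Slc3a1 overlaps Prepl, Slc1a1 overlaps Spata6l and Slc7a8 overlaps 2 uncharacterised genes. The sources used here do not name the strand setting of the counting, so reads in the shared stretches are uncertain in their gene.

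The brush border genes fell into 2 patterns over the parts of the proximal tubule. Slc3a1, Slc6a18 and Slc7a13 were highest in the straight part, and Slc7a9 and Slc6a19 in the convoluted part, while Slc1a1 was at close levels in both. Levels are UMI counts scaled to the class total (CPM) and were compared only between classes for the same gene. Since the nuclei were sorted into clusters by their own transcripts, levels between clusters are given as a description, with no test. Slc7a13 was at 3795 ± 824 CPM in the straight and 132 ± 34.3 CPM in the convoluted part (SD, n = 7 libraries), which is 28.9-fold higher in the straight part as the geometric mean of the ratios within libraries. Slc3a1 was at 3586 ± 208 CPM in the straight and 741 ± 76.4 CPM in the convoluted part, 4.86-fold higher in the straight part. Slc6a18 was at 1377 ± 197 and 310 ± 61.6 CPM in the same order, 4.48-fold higher in the straight part. All 7 libraries had these directions for the 3 genes.

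The neighbour of Slc6a18 had the reverse pattern. Slc6a19 was at 45.5 ± 28.7 CPM in the straight part and 415 ± 83.6 CPM in the convoluted part, 10.7-fold higher in the convoluted part and higher there in all 7 libraries. Slc7a9, the light chain of the cystine carrier, was at 147 ± 43.4 CPM in the straight part and 448 ± 143 CPM in the convoluted part, 3.06-fold higher in the convoluted part. Thus the heavy chain Slc3a1 and its light chain Slc7a9 peaked in different parts, and the straight part, where Slc3a1 peaked, was also where Slc7a13, the other light chain it pairs with, peaked. Slc1a1 was at 594 ± 126 CPM in the straight part and 571 ± 109 CPM in the convoluted part, and the mean log2 ratio of the parts, 0.05 ± 0.12 (SD, n = 7), lay within the spread between libraries.

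The 3 basolateral genes were all higher in the convoluted part in every library. Slc7a7 was at 76.6 ± 19.8 CPM in the straight and 1064 ± 213 CPM in the convoluted part, 14.0-fold higher in the convoluted part. Slc7a8 was at 31.3 ± 9.7 and 350 ± 136 CPM, 10.9-fold higher in the convoluted part, and Slc43a2 at 37.1 ± 12.6 and 259 ± 114 CPM, 6.69-fold higher there.

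Free RNA, which gives UMIs in nuclei that do not express a gene, was measured in podocytes. Slc34a1 was read in every cluster, and podocytes, the filter cells of the glomerulus that should lack these carriers, held 0.296% to 0.849% of their UMIs in the 16 proximal tubule markers. In podocytes the straight-part genes Slc7a13 and Slc3a1 were at 127 ± 45.4 and 187 ± 85.3 CPM. Slc7a13 in the convoluted part was at the podocyte level. Slc6a19, Slc7a7, Slc7a8 and Slc43a2 in podocytes were at 50.01 ± 24.9, 77.0 ± 35.8, 33.0 ± 16.7 and 44.7 ± 18.8 CPM, so these 4 genes in the straight part were at the podocyte level too, and their folds between parts are limited by that floor. Slc7a9, with all libraries summed, was at 136 CPM in the straight cluster. That was above podocyte (32.6 CPM) and principal (93.2 CPM) nuclei and below fibroblast (156 CPM) and endothelial (185 CPM) nuclei. The part of free RNA in its straight-part level was not tested. In the convoluted cluster, summed the same way, Slc6a18 was at 273 CPM. That was above podocyte (81.7 CPM) and endothelial (217 CPM) and below fibroblast (286 CPM) and immune (456 CPM) nuclei. Slc3a1 there was at 731 CPM, above podocyte (192 CPM), endothelial (535 CPM) and fibroblast (664 CPM) and below immune (1099 CPM) nuclei. The part of free RNA in these convoluted-part levels, and so in the folds of both genes, was not tested.

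**Figure D1:**
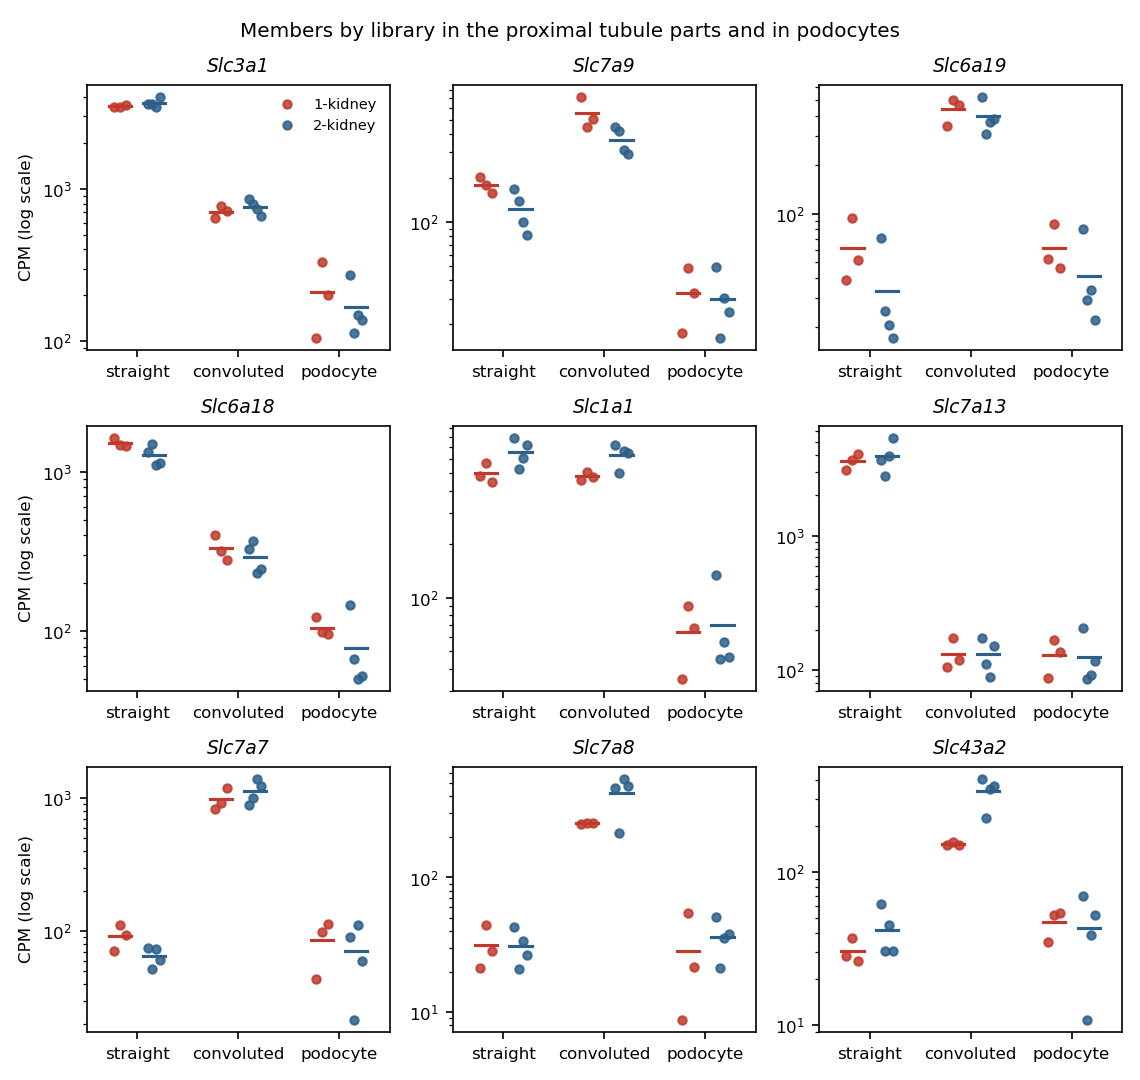
Level of each of the 9 genes in CPM (log scale, with its own range in each panel) in the straight and convoluted parts of the proximal tubule and in podocytes. Each point is 1 library (red, 1-kidney, n = 3; blue, 2-kidney, n = 4) and each line a group mean. Slc7a13 in the convoluted part, and Slc6a19, Slc7a7, Slc7a8 and Slc43a2 in the straight part, sit at the height of the podocyte points.

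Shares of nuclei with a UMI gave the same picture after each nucleus was thinned to 1000 UMIs, which left out 116 straight-part, 55 convoluted-part and 55 podocyte nuclei with fewer. Slc7a13 was read in 90.6% of straight-part nuclei, 12.8% of convoluted-part nuclei and 12.8% of podocytes. Slc3a1 was read in 96.0%, 46.9% and 19.3% of the same classes, and Slc7a7 in 6.91%, 57.4% and 7.31%. Before thinning, at median depths of 2980, 3882.5 and 2559 UMIs, Slc7a13 was read in 97.3%, 36.3% and 32.4% of these nuclei.

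Over the other classes, 8 of the 9 genes had their highest mean level in a part of the proximal tubule, and Slc43a2 did not. Outside the proximal tubule, immune nuclei were the next highest named class for 7 of these 8 genes, and fibroblasts for Slc7a8. Immune nuclei also held the highest share of proximal tubule marker UMIs outside the proximal tubule, 5.14% in 1-kidney and 3.69% in 2-kidney libraries as group means. To set free RNA aside, each gene was counted per 1000 UMIs of the 16 proximal tubule markers and set against podocytes of the same library. By that measure Slc1a1 in the thick ascending limb, at 300 ± 43.9 CPM, was at 30.8 ± 12.5 per 1000 marker UMIs, against 12.4 ± 3.47 in podocytes (SD, n = 7), above the podocytes in 7 of 7 libraries. Slc6a19 in that limb was above podocytes in 3 of 7 libraries and Slc7a13 in 4 of 7.

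Slc43a2 was highest in intercalated nuclei, the acid-base cells of the collecting system, at 552 ± 133 CPM, against 259 ± 114 CPM in the convoluted part (SD, n = 7). The thin limb, at 494 ± 408 CPM over the 6 libraries that had such nuclei, could not be told from either within its spread. Of the 2 intercalated clusters, that led by Slc26a4, the anion exchanger of type B cells, was at 680 ± 94.2 CPM in 1-kidney and 877 ± 167 CPM in 2-kidney libraries. The cluster with Slc4a1, the exchanger of type A cells, was at 251 ± 94.7 and 490.5 ± 73.6 CPM. Per 1000 proximal tubule marker UMIs, Slc43a2 was at 123 ± 76.0 in the Slc26a4 cluster and 8.52 ± 4.55 in podocytes, and it was above podocytes in 7 of 7 libraries there, in 5 of 7 in the Slc4a1 cluster and in 7 of 7 in the thick ascending limb. After thinning to 1000 UMIs it was read in 40.7% of intercalated nuclei, 23.2% of convoluted-part nuclei and 5.48% of podocytes.

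**Figure D2:**
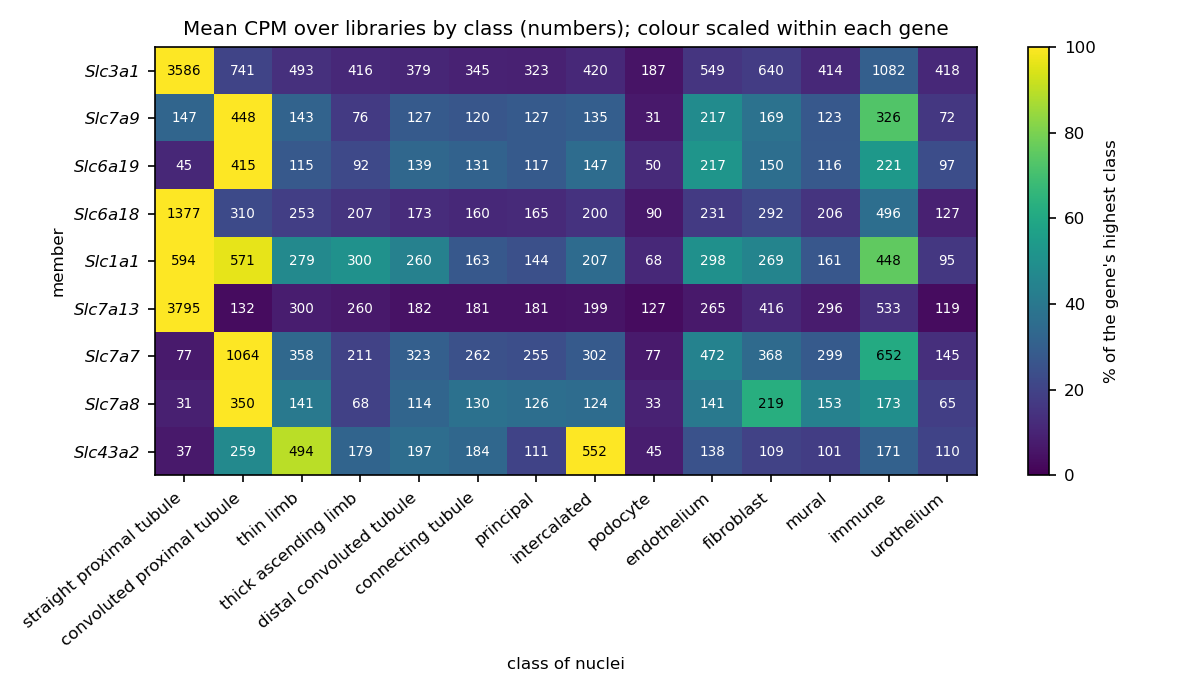
Mean level of each gene over libraries by class of nuclei, in CPM (numbers), with colour scaled to the class where that gene is highest (100%). Rows are genes and are not comparable with each other, columns are classes. The straight or the convoluted part is brightest in each row but that of Slc43a2, where intercalated nuclei (552 CPM) are.

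The Slc34a1-led cluster held 31.3% of all Slc7a13 UMIs and 53.1% of all Slc7a7 UMIs, beside 40.4% of all UMIs, with the other 7 genes between these shares. Its levels lay between those of the 2 parts for the 8 genes other than Slc1a1. Slc7a13 was at 664 ± 211 CPM there and Slc6a19 at 251 ± 65.9 CPM (SD, n = 7). Slc1a1 was at 445 ± 87.0 CPM, below both parts.

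Across the 23 clusters, the genes whose levels ran most like each member were ranked by Pearson's r of log2(CPM + 1) among 7253 genes. The clusters share libraries and free RNA, so r is a description. Slc7a13 ran closest to Hnmt (r = 0.995), Gclc and Slco1a6, and Slc3a1 to Cyp4a8 (r = 0.992), Cpox and Gramd1b. Slc6a18 ran closest to Skint10 (r = 0.985), Ggct and Gramd1b. Slc6a19 ran closest to Slc5a12 (r = 0.981), Slc5a2 and Slc4a4, carriers of lactate, glucose and bicarbonate of the convoluted part. Slc7a7 ran closest to Bnc2 (r = 0.972), Prima1 and Slc4a4, and Slc7a8 to Slc34a3 (r = 0.953), Slc5a12 and Slc4a4. Slc7a9 ran closest to Slc34a1 (r = 0.989), followed by AABR07004221.2 and Scpep1. Slc1a1 ran closest to Pyroxd2 (r = 0.959), Oplah and Nat8f5. Slc43a2 had no match as near, the closest being Ecsit (r = 0.81), Cacna1d and Zfp592. Among the 9 genes, Slc3a1 and Slc6a18 ran together (r = 0.97), as did Slc6a19 and Slc7a8 (r = 0.937), while Slc3a1 with Slc7a9 had r = 0.691.

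The design asks how these genes differ between 1-kidney and 2-kidney animals. In the parts of the proximal tubule, no gene of the 9 passed the test across all genes, in either direction. Counts summed per library were tested with edgeR's quasi-likelihood test, and a gene counted as changed at a Benjamini-Hochberg adjusted p under 0.05 over all genes tested. That rule called 0 of 7691 genes in the convoluted part (0%), 0 of 10367 in the straight part (0%), 0 of 10958 in the whole proximal tubule class (0%) and 0 of 14877 in all retained nuclei (0%). Unadjusted p-values under 0.05 were found for 1060 genes (13.8%), 1517 (14.6%), 1817 (16.6%) and 3063 (20.6%) in the same order. By unadjusted p, 4 of the 9 genes were under 0.05 in the convoluted part and 4 of 9 in the straight part. DESeq2, the other tool, called 30, 60, 112 and 480 genes in the same order, and on simulated counts at these depths edgeR's test recovered 90% of 4-fold and 48% of 2-fold changes in the convoluted part and 93% and 46% in the straight part. The simulated counts held many changed genes at once, with 145 calls in each part, which makes the adjusted threshold easier to pass. These recoveries therefore do not give the power for a single gene in the real fits, which had 0 calls. Each log2 fold change is given as 1-kidney relative to 2-kidney libraries, followed by its standard error (SE).

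The basolateral genes Slc43a2 and Slc7a8 were at lower values in the 1-kidney libraries in the convoluted part. Slc43a2 was at 150.5, 157 and 149.7 CPM in 1-kidney replicates 1 to 3 and at 410.5, 228, 350.3 and 368 CPM in 2-kidney replicates 1 to 4. All 3 values of the 1-kidney libraries lay below all 4 of the 2-kidney libraries, and 943 of 7691 genes (12.3%) had groups that did not overlap in this part in either direction. The log2 fold change was -1.13 ± 0.20 (SE), with an adjusted p of 0.248 by edgeR and 0.0027 by DESeq2. Over 15 alternatives it lay between -1.60 and -1.04, with adjusted p from 5.4e-05 to 0.665, and without set P1117B it was -1.05 ± 0.23 (edgeR adjusted p = 0.0985).

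Slc7a8 was at 248, 255 and 253 CPM in the 1-kidney and 459, 216, 541.5 and 475 CPM in the 2-kidney libraries in the convoluted part. The groups overlapped, because 2-kidney replicate 2 was below the 1-kidney libraries. The log2 fold change was -0.72 ± 0.26 (SE, edgeR adjusted p = 0.293), and -0.40 ± 0.24 without set P1117B. The third basolateral gene, Slc7a7, was at 825, 912 and 1198 CPM in 1-kidney and 885, 1001, 1401 and 1223 CPM in 2-kidney libraries, a log2 fold change of -0.18 ± 0.21 (edgeR adjusted p = 0.695) that lay within the spread between libraries.

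Among the brush border genes, Slc7a9 was at higher values in the 1-kidney libraries. In the convoluted part it was at 719, 446 and 509 CPM in 1-kidney libraries and 445, 416, 309 and 291 CPM in 2-kidney libraries, so the groups did not overlap, with 446.2 beside 444.6 CPM at the nearest. The log2 fold change was 0.63 ± 0.22 (SE, edgeR adjusted p = 0.293). In the straight part Slc7a9 was at 202, 179 and 158 CPM in 1-kidney and 169, 138.5, 99.6 and 81.4 CPM in 2-kidney libraries, with a log2 fold change of 0.55 ± 0.22 (edgeR adjusted p = 0.301), and 2-kidney replicate 1 lay above 1-kidney replicate 3. Without set P1117B, which holds the 2 lowest Slc7a9 values of either part, the log2 fold changes were 0.36 in the convoluted and 0.23 in the straight part. The proximal tubule marker share averaged 7.23% in 1-kidney and 5.68% in 2-kidney libraries in the convoluted part, and 2.87% and 2.20% in the straight part. The part of free RNA in these Slc7a9 differences was not tested.

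Slc1a1 was at 457, 512 and 477 CPM in 1-kidney and 724, 501, 673 and 655 CPM in 2-kidney libraries in the convoluted part (log2 fold change -0.38 ± 0.18, edgeR adjusted p = 0.358). In the straight part Slc1a1 was at 482, 572.5 and 449 CPM in 1-kidney and 795, 527, 612 and 719.9 CPM in 2-kidney libraries (-0.42 ± 0.18, edgeR adjusted p = 0.315). In both parts the 2-kidney replicate 2 lay among the 1-kidney libraries, and the other 3 2-kidney libraries were above them.

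No gene of the 9 had groups free of overlap in the straight part, where 13.3% of genes did. The 3 genes that peaked there did not pass the test. Slc7a13 was at 3095, 3676 and 4062 CPM in 1-kidney and 3647, 2793, 3933 and 5362 CPM in 2-kidney libraries in the straight part, a log2 fold change of -0.14 ± 0.23. Slc3a1 there was at 3441, 3413 and 3562 CPM in 1-kidney and 3616, 3592, 3456 and 4021 CPM in 2-kidney libraries (-0.09 ± 0.17), and Slc6a18 at 1640, 1476 and 1452 CPM in 1-kidney and 1338, 1495, 1098 and 1141 CPM in 2-kidney libraries (0.25 ± 0.18). Slc6a19 in the convoluted part was at 346, 506 and 465 CPM in 1-kidney and 527, 312, 368 and 384 CPM in 2-kidney libraries (0.17 ± 0.21). The adjusted p-values of these 4 genes in edgeR's test were 0.801, 0.821, 0.516 and 0.709. The largest log2 fold change of the 9 genes in the straight part was that of Slc6a19, which was at 38.9, 94.3 and 51.4 CPM in 1-kidney and 70.7, 25.2, 20.7 and 17.02 CPM in 2-kidney libraries there (0.95 ± 0.42, edgeR adjusted p = 0.327). The groups overlapped, and the gene lay at the podocyte level in that part.

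**Figure D3:**
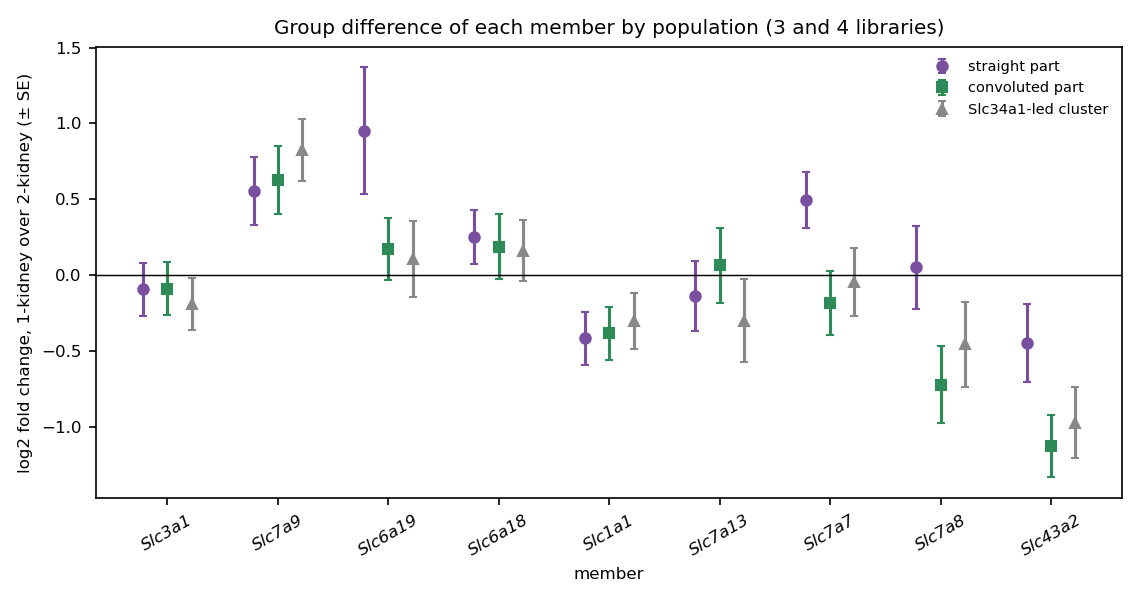
Log2 fold change of each gene, 1-kidney over 2-kidney (points, with SE as bars), in the straight part (circles), the convoluted part (squares) and the unnamed Slc34a1-led cluster (triangles), from 3 and 4 libraries. Slc43a2 lies lowest, at -1.13 in the convoluted part and -0.97 in the Slc34a1-led cluster, and Slc7a9 lies above 0 in all 3.

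The Slc34a1-led cluster, fitted apart, had Slc43a2 lowest and Slc7a9 highest among the 9, as the convoluted part did. Slc43a2 was at 107, 118 and 136 CPM in its 1-kidney and 283, 146, 310.0 and 241 CPM in its 2-kidney libraries, a log2 fold change of -0.97 ± 0.24 (SE, edgeR adjusted p = 0.221, DESeq2 adjusted p = 0.0192). Slc7a9 was at 527, 370.1 and 337 CPM in 1-kidney and 296, 236, 238 and 191 CPM in 2-kidney libraries (0.82 ± 0.20, edgeR adjusted p = 0.221, DESeq2 adjusted p = 0.023). The groups did not overlap for these 2 genes, beside 2199 of 13346 genes (16.5%) in that cluster. EdgeR's test called 0 of the 13346 (0%), with an unadjusted p under 0.05 for 2287 (17.1%), Slc43a2 and Slc7a9 among them. In all retained nuclei, where fewer nuclei of a class and less RNA per nucleus cannot be told apart, Slc43a2 was at -0.89 ± 0.21 (edgeR adjusted p = 0.164) and Slc7a9 at 0.73 ± 0.17 (edgeR adjusted p = 0.164) on the log2 scale. The share of proximal tubule marker UMIs in the Slc34a1-led cluster averaged 6.03% in 1-kidney and 4.15% in 2-kidney libraries, and its part in these differences was not tested.

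In the whole proximal tubule class the makeup of the class moved with the group. The share of the convoluted part among proximal tubule nuclei was 18.1%, 15.3% and 18.5% in 1-kidney and 22.05%, 36.4%, 55.5% and 47.9% in 2-kidney libraries. The means were 17.3% ± 1.78 and 40.5% ± 14.6 (SD, n = 3 and 4, two-sided exact permutation p = 0.0571, where 0.0286 is the smallest of the 35 splits). The 2 highest shares belong to set P1117B, and the difference of -23.2 percentage points was -11.9 without that set, -5.46 with parts split by marker score and -2.85 with classes by marker score. Slc43a2 was at -1.52 ± 0.27 and Slc7a8 at -1.31 ± 0.38 on the log2 scale in the whole class, against -1.13 and -0.72 in the convoluted part. Slc7a7 was at -0.84 ± 0.34 in the whole class, with 266, 312 and 363 CPM in 1-kidney and 315, 378, 914 and 603.5 CPM in 2-kidney libraries, against -0.18 in the convoluted part and 0.50 ± 0.18 in the straight part, where it was at the podocyte level. The edgeR adjusted p-values of Slc43a2, Slc7a8 and Slc7a7 in the whole class were 0.254, 0.255 and 0.270, and DESeq2 gave Slc43a2 2e-04 and Slc7a8 0.0365. Without set P1117B the whole-class values were -1.09 ± 0.19 for Slc43a2, -0.52 ± 0.21 for Slc7a8 and -0.15 ± 0.18 for Slc7a7.

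The difference between the parts in the group effect was tested within libraries. For Slc7a7 the effect in the straight minus that in the convoluted part was 0.70 ± 0.18, for Slc6a19 0.87 ± 0.25, for Slc7a8 0.78 ± 0.23 and for Slc43a2 0.71 ± 0.22 on the log2 scale (SE, edgeR adjusted p = 0.428 for each of these 4 genes). The test called 1 of 10364 genes (0.00965%), none of the 9, and 586 genes (5.65%) had an unadjusted p under 0.05. Slc7a7, Slc6a19, Slc7a8 and Slc43a2 are the genes that lay at the podocyte level in the straight part. Podocytes held 0.67% of UMIs in proximal tubule markers in 1-kidney and 0.47% in 2-kidney libraries as group means, and straight-part nuclei 2.87% and 2.20%. The part of free RNA in these 4 differences was not tested. Without 2-kidney replicate 1, the test called Slc6a19 (1.23 ± 0.23, edgeR adjusted p = 0.0266) and Slc7a7 (0.89 ± 0.18, 0.0347), among 12 of 10698 genes called.

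Subunit ratios need no library size, and 5 were compared in proximal tubule nuclei with an exact permutation test, adjusted over the 5. The log2 ratio of UMIs of Slc7a9 to Slc3a1 was -3.35 ± 0.29 in 1-kidney and -3.41 ± 0.37 in 2-kidney libraries (SD, n = 3 and 4, p = 0.8286 by exact permutation). Slc7a8 to Slc3a2 was 1.82 ± 0.21 in 1-kidney and 2.16 ± 0.63 in 2-kidney libraries (exact permutation p = 0.343, adjusted p = 0.571). Slc6a18 to Slc6a19 was 3.00 ± 0.45 and 2.16 ± 0.82 (exact permutation p = 0.20, adjusted p = 0.571), and the ratios of Slc7a7 to Slc3a2 and of Slc6a19 to Cltrn had exact permutation p of 0.8286 and 0.229. Within the convoluted part, Slc7a9 to Slc3a1 was -0.37 ± 0.49 in 1-kidney and -1.08 ± 0.16 in 2-kidney libraries, with no overlap of the groups (exact permutation p = 0.0286, the smallest this design allows, adjusted p = 0.143 over the 5 ratios of that part). Within the straight part, Slc7a7 to Slc3a2 was 2.37 ± 0.31 in 1-kidney and 1.49 ± 0.35 in 2-kidney libraries (exact permutation p = 0.0286, adjusted p = 0.143 over the 5 ratios of that part), where Slc7a7 lay at the podocyte level. The other 4 ratios of the straight part had exact permutation p of 0.114 to 0.286.

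Of the 9 classes tested for the group difference, 8 lay outside the proximal tubule. There, Slc7a9 was the only gene of the 9 called, in connecting tubule and in fibroblast nuclei. In connecting tubule it rose to 223, 165 and 136 CPM in 1-kidney libraries, against 75.6, 104, 56.2 and 81.1 CPM in 2-kidney libraries, a log2 fold change of 1.13 ± 0.24 (SE, edgeR adjusted p = 0.0342), where 58 of 6774 genes (0.856%) were called and 35 of them (0.517%) were higher. In fibroblast nuclei it rose to 296, 327.5 and 176.5 CPM in 1-kidney libraries, against 185, 65.3, 83.0 and 46.4 CPM in 2-kidney libraries (1.46 ± 0.37, edgeR adjusted p = 0.0366), where 213 of 6413 genes (3.32%) were called and 76 (1.19%) were higher. In fibroblasts 2-kidney replicate 1 lay above 1-kidney replicate 3. Both calls were lost without set P1117B (adjusted p = 0.111 and 0.198 in edgeR's test) and without 1-kidney replicate 1, 1-kidney replicate 2 or 2-kidney replicate 3 (0.127 to 0.187 in connecting tubule, 0.0808 to 0.273 in fibroblast nuclei), and that in fibroblasts also without 2-kidney replicate 2 (0.0818) or 4 (0.0831). The proximal tubule marker share moved with them: it averaged 2.22% in 1-kidney and 1.25% in 2-kidney connecting tubule nuclei, and 3.35% and 1.56% in fibroblast nuclei. Per 1000 marker UMIs, Slc7a9 was at 7.81 ± 1.56 in 1-kidney and 6.43 ± 1.08 in 2-kidney connecting tubule nuclei, and at 7.87 ± 1.71 and 5.70 ± 1.79 in fibroblast nuclei (SD, n = 3 and 4), beside 4.72 ± 1.35 and 6.502 ± 1.48 in podocytes. The part of free RNA in the 2 calls was not tested.

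Slc43a2 was at lower values in the 1-kidney libraries in most other classes as well, with no call. In intercalated nuclei it was at 336, 440.5 and 548 CPM in 1-kidney and 535, 613, 729.6 and 660.4 CPM in 2-kidney libraries, a log2 fold change of -0.48 ± 0.21 (SE, edgeR adjusted p = 0.345, 0 of 7200 genes called, 0%). The groups overlapped there by 1 pair of libraries. In the cluster with Slc4a1, read apart with no test, Slc43a2 was at 159, 246 and 349 CPM in 1-kidney and 482, 393, 567 and 520.2 CPM in 2-kidney libraries. In the thick ascending limb it was at 135, 163 and 127 CPM in 1-kidney and 249.99, 149.8, 270.0 and 156 CPM in 2-kidney libraries (-0.52 ± 0.24, edgeR adjusted p = 0.326, 0 of 7962 genes called, 0%). In podocytes its log2 fold change was 0.18 ± 0.39. In the thick ascending limb 8 of the 9 genes had log2 fold changes above 0 and 1 below. The proximal tubule marker share there averaged 1.39% in 1-kidney and 0.87% in 2-kidney libraries. The part of free RNA, and of the makeup of the proximal tubule class, in the differences that follow was not tested. The proximal tubule minus the thick ascending limb effect was -0.95 ± 0.22 for Slc43a2 (edgeR adjusted p = 0.157) and -1.14 ± 0.23 for Slc6a19 (edgeR adjusted p = 0.0971), in a test that called 1 of 10587 genes (0.00945%). Without 2-kidney replicate 1, that test called Slc6a19 (-1.41 ± 0.20, edgeR adjusted p = 5e-04), Slc43a2 (-1.11 ± 0.21, 0.0057), Slc7a7 (-1.14 ± 0.21, 0.0033) and Slc7a8 (-1.49 ± 0.28, 0.004), all with a lower effect in the proximal tubule. Over all genes, the fit without that library called 166 of 10399, and 135 of these were lower. The fits that left out another single library called 0 to 11 genes. In each part of the proximal tubule fitted alone with all libraries, the log2 fold change of Slc6a19 was above 0. In the whole class it lay between -0.48 and -0.058 over 14 alternatives.

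EdgeR's test called none of the 9 genes in the other 6 classes, with 7 calls in endothelium (0.082%), 3 in podocytes (0.0488%) and 0 in the thick ascending limb, intercalated, principal and distal convoluted nuclei (0% each). An unadjusted p under 0.05 was found for 5 of the 9 genes in principal nuclei (17.4% of all genes), 4 in the thick ascending limb (14.6%), 4 in endothelium (14.8%), 4 in distal convoluted tubule (13.9%), 4 in fibroblasts (20.8%), 3 in connecting tubule (18.9%), 3 in intercalated nuclei (13.2%) and none in podocytes (9.73%). Slc6a18, the glycine and neutral amino acid carrier, was the gene whose groups did not overlap in the thick ascending limb (13.1% of all genes) and in intercalated nuclei (11.1%), with the 1-kidney libraries higher, and also in the whole proximal tubule class (14.4%), where Slc43a2 was the other. The proximal tubule marker share averaged 1.39% in 1-kidney and 0.87% in 2-kidney libraries in the thick ascending limb, and 2.46% and 1.56% in intercalated nuclei. The part of free RNA in these Slc6a18 values was not tested. The effect in the thick ascending limb was taken from that in the whole class or in each part, and unadjusted p-values under 0.05 were found for 5 of the 9 genes with the whole class (8.26% of all genes), 3 with the straight part (6.57%) and 7 with the convoluted part (8.48%). With the parts, edgeR's test called 2 genes (0.0192%) and 11 genes (0.123%), none of the 9. In the convoluted part minus the thick ascending limb all 9 values were below 0, while 3897 of all 8939 genes were above 0 (median -0.057). The part of free RNA in the limb in these 9 values was not tested. Leaving out a library changed the calls of the convoluted part minus the limb: without 2-kidney replicate 1 the test called Slc6a19 (-0.90 ± 0.21, edgeR adjusted p = 0.0277) and Slc6a18 (-0.77 ± 0.18, 0.0277), and without 1-kidney replicate 1 it called Slc3a1 (-0.84 ± 0.19, 0.0483). Over all genes these 2 fits called 86 of 9242 and 17 of 9626.

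**Figure D4:**
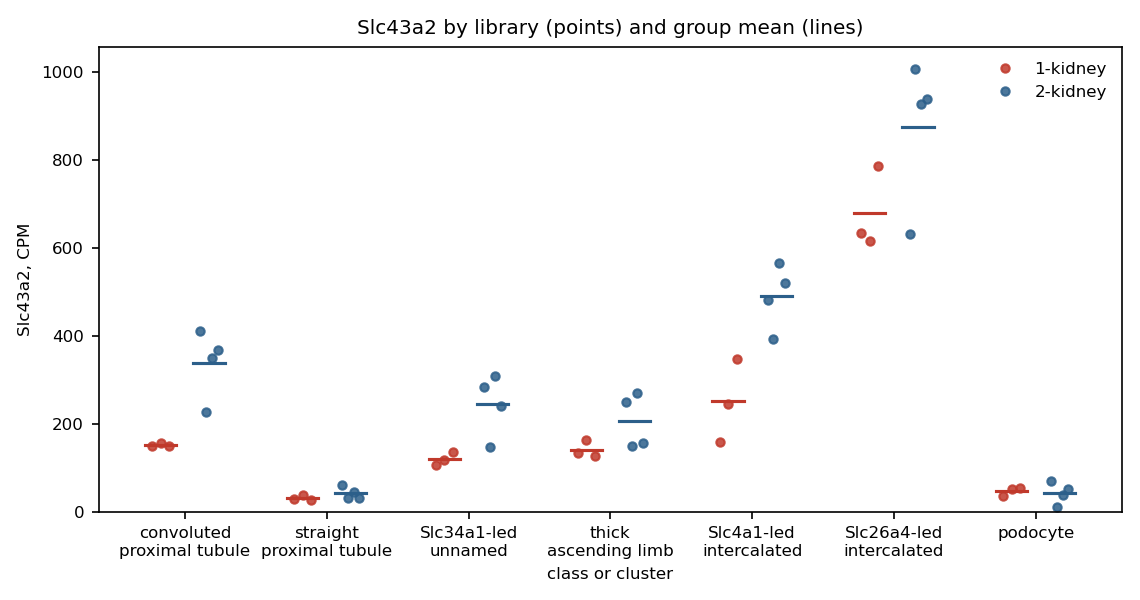
Level of Slc43a2 in CPM by class or cluster of nuclei, with 1 point per library (red, 1-kidney, n = 3; blue, 2-kidney, n = 4) and lines at group means. In the convoluted part the 1-kidney points sit near 150.5 CPM, below all 2-kidney points, and the highest values are in the Slc26a4-led intercalated cluster.

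Other amino acid transport genes were read from a list of 46, of which 19 were tested in the convoluted part and 24 in the straight part. None was called in either direction by edgeR's test with its filter on low counts. In the convoluted part 8 of the 19 had positive and 11 negative log2 fold changes, with a median of -0.30, beside 0.00 over all genes tested. In the straight part 7 of the 24 were positive, with a median of -0.18, beside -0.01 over all genes. Slc16a10, a basolateral carrier of aromatic amino acids, was at 163 ± 55.8 CPM in 1-kidney and 306 ± 93.3 CPM in 2-kidney libraries in the convoluted part (SD, n = 3 and 4, log2 fold change -0.86 ± 0.28 SE), and at 58.6 ± 13.9 and 103 ± 34.1 CPM in the straight part (-0.80 ± 0.23). Slc6a6, the taurine carrier, was at 280.5 ± 39.8 CPM in 1-kidney and 597 ± 242 CPM in 2-kidney libraries in the straight part (-1.09 ± 0.26). The edgeR adjusted p-values of these 3 values were 0.274, 0.255 and 0.220. Some alternatives called them: with no filter on low counts the adjusted p-values were 0.0048, 0.0315 and 0.0026 in edgeR's test, and Slc6a6 in straight proximal tubule nuclei passed also with DESeq2 (0.0145), with the set as a term (0.0073) and without set P1117B (0.0137). Over all alternatives the adjusted p-values reached 0.665 for Slc16a10 in the convoluted part and 0.598 for Slc16a10 and Slc6a6 in the straight part.

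Of the named partners, the heavy chain Slc3a2 was at 45.6 ± 7.81 CPM in 1-kidney and 64.2 ± 9.82 CPM in 2-kidney libraries in the convoluted part (log2 fold change -0.52 ± 0.23, edgeR adjusted p = 0.348). Cltrn, the collectrin that carries Slc6a19 to the membrane, was at 111 ± 17.7 and 148 ± 55.4 CPM there (-0.37 ± 0.28, edgeR adjusted p = 0.553). Slc6a20, which carries proline, was at 317 ± 14.2 and 435 ± 91.5 CPM (-0.44 ± 0.19, edgeR adjusted p = 0.347). Slc38a2, a carrier of small neutral amino acids, was at 78.5 ± 5.48 CPM in 1-kidney and 52.9 ± 14.1 CPM in 2-kidney libraries in the convoluted part (0.64 ± 0.24, edgeR adjusted p = 0.319), and the peptide carrier Slc15a1 at 10.7 ± 0.90 and 24.4 ± 6.86 CPM (-1.17 ± 0.36, edgeR adjusted p = 0.274).

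Enzymes that break down amino acids were read from a list of 39, of which 32 were tested in each part, with no call in either direction. In the convoluted part 10 of the 32 had positive log2 fold changes and the median was -0.13, and in the straight part 9 of the 32 and -0.16. Dmgdh, of choline and glycine metabolism, was at 199 ± 39.4 CPM in 1-kidney and 274 ± 16.3 CPM in 2-kidney libraries in the convoluted part (log2 fold change -0.45 ± 0.18, edgeR adjusted p = 0.337). Gldc, of glycine cleavage, was at 57.03 ± 17.4 CPM in 1-kidney and 24.0 ± 9.24 CPM in 2-kidney libraries in the straight part (1.17 ± 0.30, edgeR adjusted p = 0.227), and Prodh2, of hydroxyproline breakdown, at 252 ± 48.7 and 146 ± 45.6 CPM (0.78 ± 0.22, edgeR adjusted p = 0.255). With no filter on low counts edgeR's test called both (adjusted p = 0.0052 for Gldc and 0.041 for Prodh2), and DESeq2 called Gldc in straight proximal tubule nuclei (adjusted p = 0.0386), while over all alternatives the adjusted p-values of both reached 0.598.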

How the data were processed

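Nuclei were isolated from kidney pieces and run on the 10x 3′ chemistry, per the labels' protocols. The deposited values are raw UMI counts per gene and barcode, made with Cell Ranger 7.0 per the submitters' processing notes. The sources used here name no genome build, annotation or strand setting. A barcode was kept from 200 genes upward, up to a mitochondrial UMI share of 5%. The barcodes with the highest Scrublet scores, called doublets here, were then removed at an assumed rate of 0.8% of barcodes per 1000. That took out 77 to 415 barcodes per library, where Scrublet's own cut flagged 0 to 4. Nuclei were scaled to 10000 UMIs and clustered with Leiden at resolution 1.0 from 2000 variable genes and 30 components (scanpy 1.11.5, leidenalg 0.10.2, Python 3.11.15). A cluster was named where at least 3 markers of a class were 2-fold above the other nuclei and no other class had more markers among the 10 leading genes. In addition, every other class had to have fewer 2-fold markers, or the class at least 2 markers among those 10 genes. Counts were summed per library and class, and tested over all genes by the quasi-likelihood test of edgeR 4.0.16 in R 4.3.3 (two-sided), after filterByExpr and TMM scaling and with Benjamini-Hochberg adjustment. The alternative tool was DESeq2 1.42.0. All 9 genes passed the filter in every class fitted. Single values were tested by exact permutation over libraries, with every split listed. The genes named outside the 9 were up to 5 of each list with the smallest p, and fixed partners, of which some are not reported here. The members and lists were chosen with earlier results of these data known. The fit was tested on simulated counts. The libraries are taken as separate animals. Total UMIs per library limit precision, and the SDs and tests cover the spread between libraries. Thin limb, immune, mural and urothelial nuclei were too few in some libraries to be tested, and cycling nuclei (71 to 163 per library), a state and not a cell type, were left out. Unnamed clusters held 47.5% of UMIs.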

Additional observations from a re-analysis of the deposited data

Results flagged for a closer look

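In 2 of 51 groups of 4 libraries examined, 1 library stood apart from the other 3 by Dixon's criterion, which chance meets in about 1 in 20 groups. Slc6a19 in the straight part was at 70.7 CPM in 2-kidney replicate 1, against 17.02 to 25.2 CPM in the other 3 2-kidney libraries. In podocytes, too, 2-kidney replicate 1 had the highest Slc6a19 level of the 2-kidney libraries. Slc7a13 in all retained nuclei was at 1224 CPM in 2-kidney replicate 4, against 761 to 834 CPM in the other 3 2-kidney libraries. In straight-part nuclei, where most of its UMIs in named classes lay, that library was also the highest, at 5362 CPM.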

How the results depend on the processing

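Of the single values, 859 kept their direction and side of the threshold under the alternatives, 21 turned, 33 passed the threshold under the alternative alone, 17 no longer passed it and 1 moved. With edgeR at its main settings, the number of the 9 genes called was 0 in each fit of the proximal tubule. With DESeq2 it was 2 in all nuclei, 2 in the whole proximal tubule class, 1 in the convoluted part, 2 in the Slc34a1-led cluster and 1 in principal cells. Over all genes DESeq2 called, in the same order, 480 of 14877, 112 of 10958, 30 of 7691, 161 of 13346 and 130 of 8360. With no filter on low counts the number of the 9 called was 2 in the whole class, 2 in the convoluted part, 2 in connecting tubule, 1 in distal convoluted tubule, 1 in endothelium, 3 in principal cells, 4 for proximal tubule minus thick ascending limb and 3 for straight minus convoluted part. Over all genes these fits called, in the same order, 57 of 18439, 191 of 17056, 244 of 15913, 104 of 16355, 266 of 17192, 420 of 16562, 106 of 18957 and 42 of 18439. With parts split by marker score (for the difference, chosen after seeing the data) the number of the 9 called was 2 in the convoluted part and 5 for straight minus convoluted part. Those fits called 35 of 8950 and 263 of 9959 genes. The 1 call in connecting tubule and the 1 in fibroblasts became 0 with classes by marker score, the set as a term, doublets kept or without set P1117B, and that in connecting tubule also with the 9 genes among the variable genes. Leaving out each library in turn gave 0 to 4 calls for proximal tubule minus thick ascending limb, 0 to 2 for straight minus convoluted part, for convoluted part minus thick ascending limb, in connecting tubule and in fibroblasts, and 0 to 1 in distal convoluted tubule, podocytes and thick ascending limb. Without 2-kidney replicate 1, these 8 fits called, in the same order, 166 of 10399, 12 of 10698, 86 of 9242, 342 of 6862, 396 of 5397, 73 of 7086, 167 of 5542 and 89 of 8454 genes. Leaving out single libraries moved the log2 ratio difference of Slc7a7 to Slc3a2 between -0.17 and 0.25, and of Slc7a9 to Slc3a1 between -0.11 and 0.23. That of Slc7a8 to Slc3a2 was 0.16 without set P1117B. Log2 fold changes that turned were small in most cases. Without set P1117B they were -0.10 for Slc6a18, -0.072 for Slc7a13 and 0.044 for Slc7a7 in the convoluted part and 0.17 for Slc7a13 in the straight part, and with the set as a term -0.10, -0.063, 0.046 and 0.17. With parts by marker score they were 0.68 for Slc3a1, -0.35 for Slc6a19 and 0.11 for Anpep in the convoluted part, and -0.11 for Slc7a7 and -0.40 for Slc7a8 in the straight part. Slc3a1 was at -0.043 in the whole class by marker score and Slc7a13 at -0.024 in the convoluted part with no filter. Over single libraries left out, Slc7a13 lay between -0.18 and 0.21 in the convoluted and -0.26 and 0.058 in the straight part, and Slc7a8 between -0.25 and 0.22 in the straight part. The cause was not tested. With doublets kept the straight cluster had no name, so its values and those of the whole class were not run. The 1-kidney and 2-kidney libraries could not be paired with each other, because the titles name no link between animals.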
